A study of Homo sapiens with 21 samples.

Results

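The transcript response of a myeloma line to pomalidomide was set beside the response of the same line to a hairpin against Aiolos, gene by gene. The cells were MM.1S, an established human line derived from the blood of a patient with multiple myeloma, and mRNA was sequenced. For each gene the drug effect was the mean log2(TPM + 1) of Pom_72h minus that of Non-treat. The knockdown effect was the mean of Aiolos_KD minus that of Control_KD, and the difference of differences was the drug effect minus the knockdown effect. Of 17691 genes listed, the 12559 with at least 1 TPM in at least 3 of the 21 libraries of the study were compared. TPM is the length-scaled share that a gene takes of a library's transcripts, so values of different genes can be set side by side, and a TPM can fall because other genes rose. The comparison used 12 of the 21 libraries, 3 per group, and no library entered both effects.

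The Pom_72h group was wild-type MM.1S given 1 µM pomalidomide for 72 h, and the Non-treat group was wild-type MM.1S without drug. The Aiolos_KD group received no drug and carried, for 72 h after lentiviral transduction, a hairpin RNA against Aiolos, the protein of IKZF3. The Control_KD group is labelled control knockdown, also without drug; its hairpin and its duration are not stated in the labels. The ARID2_KD group, used beside some results, carried a lentiviral hairpin against ARID2 for 72 h, without drug. Neither the hairpin's sequence nor the number of hairpins against Aiolos is given, the cells all come from 1 line, and the labels name no untreated cells kept for the 72 h of drug. Per the design text each group has 3 biological replicates, whose cultures and days are not given, and p-values reflect only the spread among such libraries. Because TPM keeps no record of depth, the depth of each library is unknown.

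Cereblon (CRBN) selects the substrates of a ubiquitin ligase, and pomalidomide bound to it directs Ikaros (IKZF1) and Aiolos (IKZF3) proteins there for degradation. Ikaros and Aiolos are zinc finger transcription factors of lymphoid cells that bring chromatin regulators to their target genes. Myeloma is a cancer of plasma cells, which secrete antibody and rely on the transcription factor IRF4 and on a large endoplasmic reticulum. The comparison addresses which transcript changes a drug that removes several proteins has in common with a hairpin aimed at 1 of them.

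The libraries held the defining plasma cell transcripts. SDC1, TNFRSF17, XBP1, PRDM1, IRF4, MZB1, SLAMF7 and CD38 were detected in all 4 groups, with CD38 the lowest of these at 11.6, 6.92, 12.8 and 7.81 TPM on average in Pom_72h, Non-treat, Aiolos_KD and Control_KD. Of 17 T and NK cell markers 15 were in the table and 5 passed the filter on low values, and CD3D and CD8B were listed at 0 in the 12 libraries. The 12 libraries correlated at 0.993 to 0.996 within groups (12 pairs) and at 0.908 to 0.987 between groups (54 pairs). Mitochondrial mRNA took 13.7% ± 0.45 in Pom_72h and 15.5% ± 0.13 in Non-treat of the TPM listed (SD, n = 3 each). It took 15.7% ± 0.838 in Aiolos_KD and 17.2% ± 0.373 in Control_KD.

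The targeted gene was read first. IKZF3 (chromosome 17, 39757715 to 39864188, minus strand, GRCh38) stood at 117.0, 109.3 and 108.5 TPM in Pom_72h, against 98.0, 96.7 and 94.5 TPM in Non-treat. In Aiolos_KD, labelled as the knockdown, it stood at 127.3, 121.0 and 141.4 TPM, against 83.5, 79.2 and 81.4 TPM in Control_KD. The IKZF3 transcript was thus higher where the label says knockdown, and neither pair of groups overlapped. IKZF3 averaged 119.5 TPM in ARID2_KD, 0.55 above Control_KD, and Control_KD lay 0.24 below Non-treat (-0.24, adjusted p = 0.000353). The knockdown effect was 0.67 ± 0.05 on the log2 scale (SE, adjusted p = 1.92e-10, limma) and the drug effect 0.21 ± 0.05 (adjusted p = 0.00055). The drug effect was 0.46 smaller than the knockdown effect (difference of differences -0.46 ± 0.07, adjusted p = 6.95e-06). With median-of-ratios scaling the drug effect did not pass (0.05, adjusted p = 0.331). Protein was not measured, so the label cannot be checked at the level of Aiolos itself. Aiolos_KD and "knockdown effect" are therefore the names of libraries labelled Aiolos knockdown, and each direction given for them rests on that label.

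IRF4 and MYC, transcription factors on which myeloma cells depend, were lower in both comparisons. IRF4 (chromosome 6, 391739 to 411447, plus strand) stood at 233.3, 225.8 and 229.3 TPM in Pom_72h, against 471.3, 459.3 and 476.1 TPM in Non-treat. It stood at 134.9, 129.2 and 145.5 TPM in Aiolos_KD, against 618.6, 635.8 and 638.7 TPM in Control_KD, so that neither pair overlapped. IRF4 fell by 1.03 with the drug and by 2.20 in the labelled knockdown (SE 0.04 each), and the difference of 1.17 ± 0.05 passed (adjusted p = 5.64e-14). MYC fell by 0.65 with the drug and by 0.18 in the labelled knockdown (SE 0.03 each), a difference of -0.47 ± 0.04 (adjusted p = 1.01e-08). MYC averaged 305.4 TPM in Pom_72h and 479.3 TPM in Non-treat, and 328.0 TPM in Aiolos_KD and 370.8 TPM in Control_KD. Against its own control, IRF4 lost more in the labelled knockdown and MYC lost more with the drug. Control_KD minus Non-treat was 0.43 for IRF4 and -0.37 for MYC, and the part of these gaps in the differences was not tested.

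The stretch before the IRF4 start site is shown because Ikaros-family proteins recognise a core of GGGAA, which it holds on both strands. It spans chr6:391532-391738 (GRCh38.p14, plus strand, RefSeq), and the capitals mark GGGAA or its complement.
IRF4: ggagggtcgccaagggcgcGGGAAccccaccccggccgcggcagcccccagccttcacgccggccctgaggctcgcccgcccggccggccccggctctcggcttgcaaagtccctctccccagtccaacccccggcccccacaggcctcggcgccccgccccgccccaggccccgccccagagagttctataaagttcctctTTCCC
GGGAA stood within the 250 bases before the start site of 61.4% of the 7220 genes with exactly 1 RefSeq promoter. Its share was 63.8% among genes lower in both effects, 59.9% among genes higher in both, 58.4% and 65.0% among the opposed genes with the drug effect higher and lower, and 59.7% to 65.4% among genes that moved in 1 effect alone. A match describes letters in a window and is not a binding site.

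IKZF1 (chromosome 7, 50304068 to 50405101, plus strand), the Ikaros gene, rose by 0.66 ± 0.04 with the drug, to 73.5 ± 4.02 TPM in Pom_72h against 46.0 ± 1.62 TPM in Non-treat (SD, n = 3 each). Its knockdown effect was 0.13 ± 0.04 (adjusted p = 0.016, limma) and was lost with median-of-ratios scaling (0.06), with quantile normalization (0.09), without Aiolos_KD replicate 3 (0.09) and without Control_KD replicate 3 (0.09). The difference passed at 0.54 ± 0.06. CRBN (chromosome 3, 3144628 to 3179727, minus strand), the receptor that the drug binds, had effects of 0.27 ± 0.07 and 0.23 ± 0.07. Under median-of-ratios scaling its drug effect did not pass (0.11, adjusted p = 0.153), nor did its knockdown effect with quantile normalization (0.14, adjusted p = 0.0888) and without Control_KD replicate 2 (0.18, adjusted p = 0.0689). ARID2 (chromosome 12, 45729665 to 45908040, plus strand), of the PBAF chromatin remodeller, had a drug effect of -0.01 ± 0.07 and a knockdown effect of -0.17 ± 0.07 (adjusted p = 0.0298). The knockdown effect of ARID2 did not pass without Aiolos_KD replicate 2 (-0.10) or without Control_KD replicate 1 (-0.16), 2 (-0.18) or 3 (-0.18), nor without mitochondrial and ribosomal protein mRNA (-0.12).

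Across all genes the drug effect passed more often and had the wider spread. It passed in 10017 of 12559 genes (79.8%). Of these 6047 were higher (48.1%) and 3970 lower (31.6%), and 1363 (10.9%) and 980 (7.8%) changed 2-fold or more. The knockdown effect passed in 8522 genes (67.9%), 4669 higher (37.2%) and 3853 lower (30.7%), of which 521 (4.15%) and 391 (3.11%) reached 2-fold. The difference of differences passed in 7907 genes (63.0%), 4393 higher (35.0%) and 3514 lower (28.0%), and 1029 (8.19%) and 831 (6.62%) of these reached 2-fold. The libraries of the 2 groups did not overlap in 80.4% of genes for the drug effect and in 70.6% for the knockdown effect. The SD of the effects across genes was 0.903 for the drug and 0.574 for the labelled knockdown. As a description across genes, which are not independent replicates, the effects correlated at Pearson r 0.487 and Spearman rho 0.525. The median effect over all genes was 0.15 for the drug, 0.05 for the labelled knockdown and 0.07 for the difference, and median-of-ratios scaling moved these by -0.146, -0.0528 and -0.0911. With that scaling 50.0% of genes past the drug threshold were higher, against 60.4%, and quantile normalization gave 53.7%. List medians are therefore given relative to the median of all genes.

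**Figure D1:**
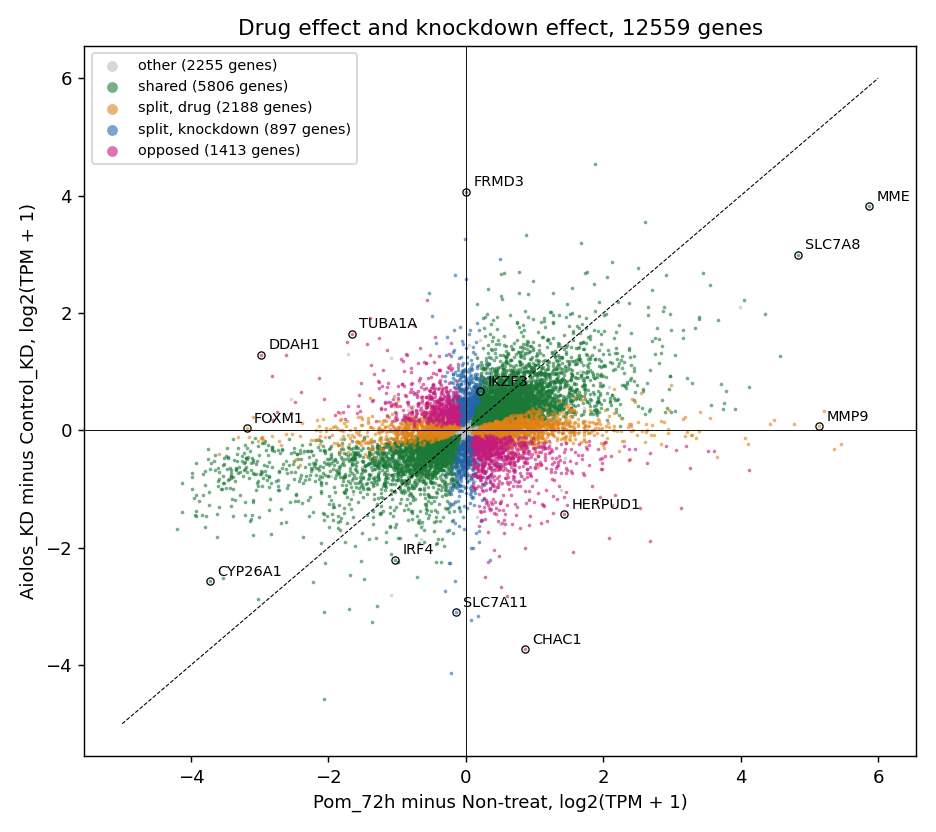
Knockdown effect (vertical axis) against drug effect (horizontal axis) of the 12559 genes, both in log2(TPM + 1), coloured by class, with a dashed line where the effects are equal. The 5806 shared genes fill the lower left and upper right, the 1413 opposed genes the other corners, and FRMD3 and MMP9 lie on the axes, near 4.07 and 5.14.

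Genes that passed in both effects moved the same way more often than not. Both effects were higher in 3437 genes (27.4% of all genes tested) and lower in 2369 (18.9%), together called shared. These were 56.8% of the genes higher with the drug and 73.6% of those higher in the labelled knockdown, and 59.7% and 61.5% of the genes lower in each. The effects opposed each other in 853 genes (6.79%) higher with the drug and in 560 genes (4.46%) lower with it. At 2-fold or more in both effects, 243 genes (1.93% of all) were shared higher, 150 (1.19%) shared lower, and 22 (0.175%) and 10 (0.0796%) opposed. With median-of-ratios scaling 2747 genes were shared higher and 3010 shared lower (47.7% higher, against 59.2% in the deposited scaling), and 734 and 677 were opposed.

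The rest split. In 1367 genes (10.9%) the drug effect alone was higher and the difference passed, and in 821 (6.54%) the drug effect alone was lower. The knockdown effect alone was higher in 462 genes (3.68%) and lower in 435 (3.46%). For 610 (4.86%) and 406 (3.23%) genes that passed only with the drug or only in the labelled knockdown, the difference did not pass, so they are not shown to split. Another 1239 genes (9.87%) passed in neither effect. Within the shared genes the difference passed in 1880 of 3437 higher genes and in 1468 of 2369 lower genes, and the drug effect was the larger in 1394 and 1157 of these. On the scale of log2 differences, the median drug effect of the shared lower genes was -0.66 and their median knockdown effect -0.46.

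By the smaller of its effects, the largest shared rise was in MME, the peptidase CD10 of B cell precursors. MME (chromosome 3, 155024124 to 155183729, plus strand) stood at 378.3, 358.9 and 369.6 TPM in Pom_72h, against 5.68, 5.59 and 4.76 TPM in Non-treat. It stood at 161.2, 155.7 and 178.5 TPM in Aiolos_KD, against 11.3, 10.0 and 10.9 TPM in Control_KD. No library of a treated group came near its controls. The effects were 5.87 ± 0.08 and 3.82 ± 0.08 and the difference 2.05 ± 0.11 (adjusted p = 2.17e-12, limma).

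Other shared rises covered transport, signalling and adhesion. SLC7A8, an amino acid transporter (chromosome 14, 23125295 to 23183674, minus strand), stood at 38.0, 44.0 and 43.5 TPM in Pom_72h against 0.56, 0.36 and 0.59 TPM in Non-treat, and at 10.4, 9.42 and 10.5 TPM in Aiolos_KD against 0.53, 0.17 and 0.50 TPM in Control_KD. Its controls were near 0, and its effects were 4.83 ± 0.12 and 3.00 ± 0.12, on the log2(TPM + 1) scale that understates changes of low genes. WNT5A, a secreted Wnt ligand, averaged 36.0 ± 2.11 TPM in Pom_72h and 3.95 ± 0.642 TPM in Non-treat, and 23.7 ± 2.12 TPM in Aiolos_KD and 2.97 ± 0.393 TPM in Control_KD. Its effects of 2.91 and 2.64 did not differ past the threshold (0.27 ± 0.12, adjusted p = 0.0635), but did without Pom_72h replicate 3 (0.31), Non-treat replicate 1 (0.36), Aiolos_KD replicate 3 (0.34) or Control_KD replicate 2 (0.35). LRRN2, a leucine-rich repeat membrane protein, rose by 2.51 and 2.76 (difference -0.25 ± 0.14, adjusted p = 0.11), and the difference passed with median-of-ratios scaling (-0.34) and quantile normalization (-0.36). CHRNA1, a nicotinic receptor subunit, rose by 3.55 and 2.48, and GBP4, an interferon-inducible GTPase, by 3.46 and 2.69. GBP4's difference of 0.77 ± 0.13 was lost with a pseudocount of 0.1 TPM (0.39, adjusted p = 0.228).

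CYP26A1, which breaks down retinoic acid, ranked first among the shared falls once near-identical families were passed over. CYP26A1 (chromosome 10, 93073475 to 93077890, plus strand) stood at 6.58, 4.99 and 6.61 TPM in Pom_72h, against 92.6, 93.0 and 89.8 TPM in Non-treat. It stood at 14.9, 17.6 and 13.3 TPM in Aiolos_KD, against 92.4, 94.2 and 97.6 TPM in Control_KD, and the controls of the effects were alike. Its effects were -3.72 ± 0.09 and -2.57 ± 0.09, a difference of -1.16 ± 0.13 (adjusted p = 2.23e-07, limma). CCND1 (cyclin D1) averaged 0.97 ± 0.23 TPM in Pom_72h and 7.14 ± 0.563 TPM in Non-treat, and 1.68 ± 0.416 TPM in Aiolos_KD and 11.7 ± 0.351 TPM in Control_KD. It fell by 2.05 and 2.25, and the difference of 0.20 ± 0.15 did not pass (adjusted p = 0.232), though it did without Aiolos_KD replicate 1 (0.33).

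Other shared falls differed in which effect was larger. HRASLS2, a phospholipid-metabolising enzyme, had the largest knockdown effect of the shared falls. It averaged 1.99 ± 0.668 TPM in Pom_72h and 11.6 ± 3.33 TPM in Non-treat, and 0.70 ± 0.169 TPM in Aiolos_KD and 39.2 ± 2.92 TPM in Control_KD (effects -2.06 and -4.57). PHGDH, the first enzyme of serine synthesis, fell by 2.22 and 2.59; its difference of 0.36 was lost with a pseudocount of 0.1 TPM (0.21) and without mitochondrial and ribosomal protein mRNA (0.25). MEI1, a meiotic gene, fell by 2.11 and 1.93 (difference -0.18 ± 0.09, adjusted p = 0.0839); the difference passed with a pseudocount of 0.1 TPM (-0.29), median-of-ratios scaling (-0.25), quantile normalization (-0.23), without mitochondrial and ribosomal protein mRNA (-0.28), without trend (-0.18), without Pom_72h replicate 3 (-0.23) and without Control_KD replicate 2 (-0.24). TMEFF1 fell by 3.53 and 2.52 but overlaps a readthrough gene, so its value is uncertain. Its difference (-1.01, adjusted p = 0.0734, limma) passed without Pom_72h replicate 2 (-1.24) or 3 (-1.21) and without Aiolos_KD replicate 2 (-1.40).

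**Figure D2:**
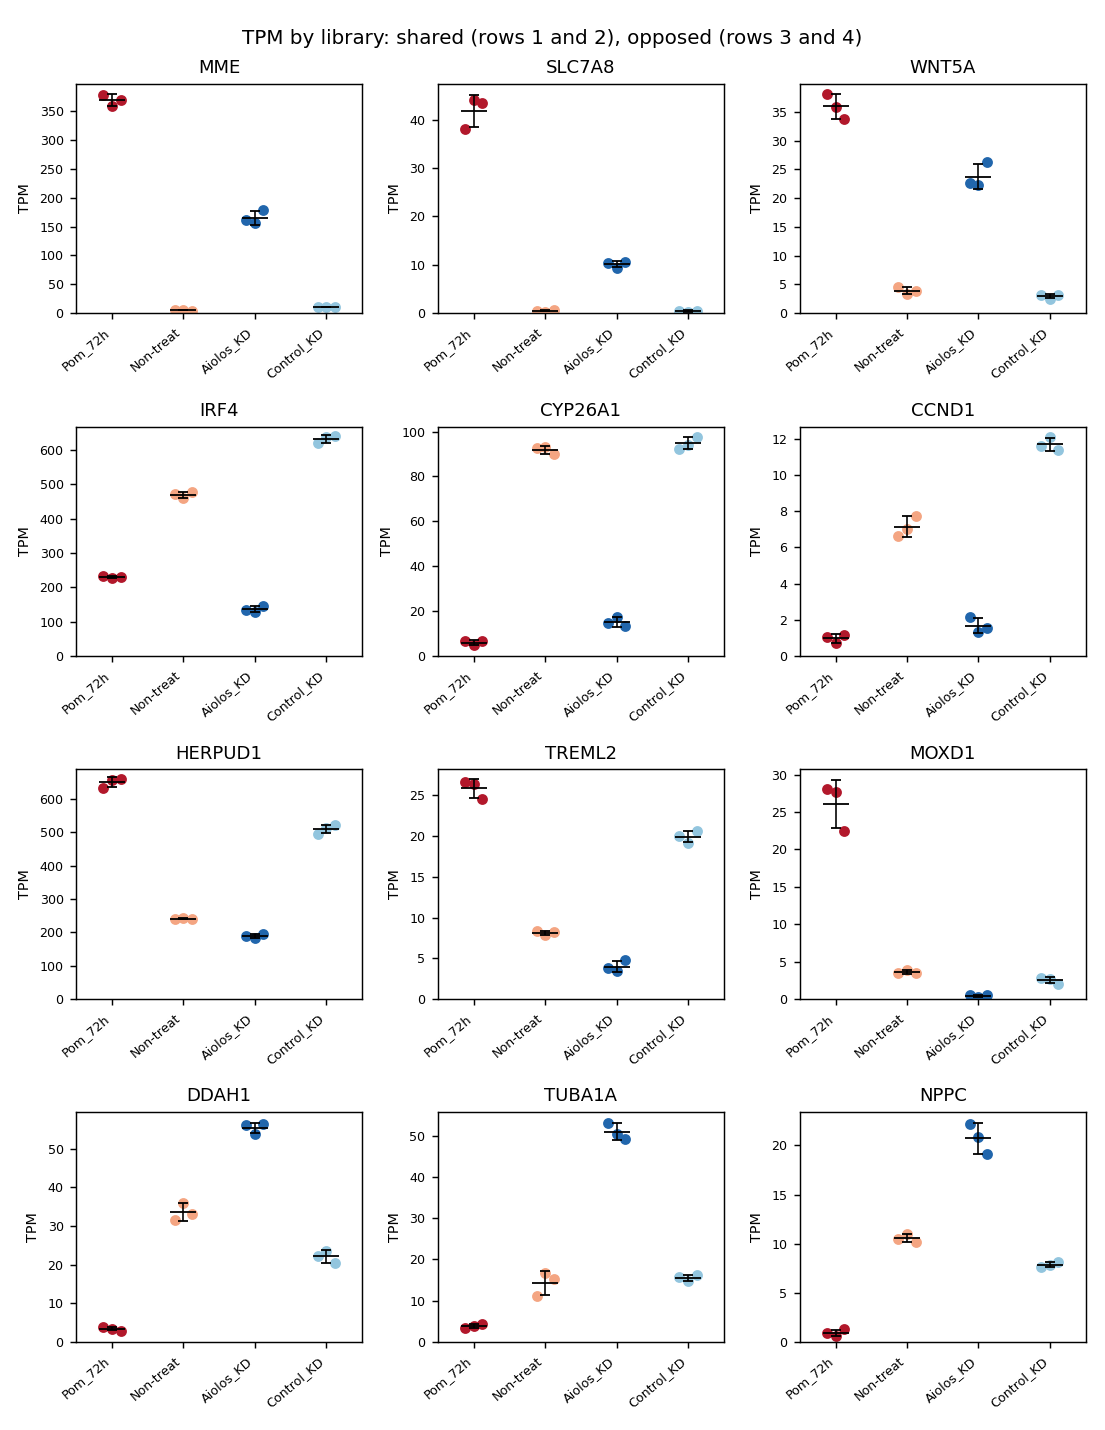
TPM of 12 genes in each of the 12 libraries (points), with the mean and SD of each group (bars, n = 3), shared genes above and opposed genes below. MME reached 358.9 TPM or more in Pom_72h and 155.7 TPM or more in Aiolos_KD, and HERPUD1 was high in Pom_72h and Control_KD and low in Non-treat and Aiolos_KD.

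The opposed genes named with the drug effect higher were SNTB1, TREML2, HERPUD1, MOXD1, ZCCHC24 and RUNX2. HERPUD1, a membrane protein of endoplasmic reticulum quality control (chromosome 16, 56932048 to 56944863, plus strand), stood at 632.9, 656.6 and 660.2 TPM in Pom_72h against 239.8, 243.9 and 239.4 TPM in Non-treat. It stood at 187.5, 184.1 and 194.1 TPM in Aiolos_KD against 496.3, 512.4 and 520.7 TPM in Control_KD. Its drug effect was 1.43 ± 0.03 and its knockdown effect -1.43 ± 0.03, a difference of 2.86 ± 0.04 (adjusted p = 1.29e-20, limma). Control_KD itself stood above Non-treat by 1.08 ± 0.03. The part of that gap in the result was not tested.

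RUNX2, a transcription factor (chromosome 6, 45328157 to 45664349, plus strand), opposed with controls close together. It stood at 68.2, 62.9 and 60.9 TPM in Pom_72h against 28.2, 27.7 and 27.4 TPM in Non-treat, and at 10.2, 10.3 and 9.80 TPM in Aiolos_KD against 30.5, 32.7 and 31.1 TPM in Control_KD. Its effects were 1.18 ± 0.05 and -1.55 ± 0.05, and Control_KD exceeded Non-treat by 0.17. MOXD1, a copper monooxygenase-like protein, averaged 26.1 ± 3.22 TPM in Pom_72h and 3.64 ± 0.242 TPM in Non-treat, and 0.40 ± 0.167 TPM in Aiolos_KD and 2.52 ± 0.436 TPM in Control_KD. Its effects were 2.54 and -1.33, and Control_KD lay 0.40 below Non-treat (-0.40 ± 0.10). TREML2, an immune receptor (1.56 and -2.08), SNTB1, a syntrophin (2.68 and -1.89), and ZCCHC24 (1.27 and -1.41) had Control_KD above Non-treat by 1.20, 1.69 and 0.86. In the 6 genes the gap between the controls was smaller than either effect, and its part in the results was not tested. ARID2_KD also lay below Control_KD in SNTB1 (-1.80), TREML2 (-1.52), ZCCHC24 (-1.36), RUNX2 (-0.30) and HERPUD1 (-0.28), and did not pass in MOXD1 (-0.21). Aiolos_KD and ARID2_KD did not differ past the threshold in SNTB1 and ZCCHC24, while Aiolos_KD was the lower in TREML2, HERPUD1, MOXD1 and RUNX2.

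Opposed genes with the drug effect lower included DDAH1, which degrades methylated arginine. DDAH1 (chromosome 1, 85318481 to 85578363, minus strand) stood at 3.80, 3.45 and 2.94 TPM in Pom_72h against 31.5, 36.0 and 33.2 TPM in Non-treat, and at 56.0, 53.9 and 56.3 TPM in Aiolos_KD against 22.3, 23.6 and 20.4 TPM in Control_KD. All 3 treated libraries of one effect lay below their controls and all 3 of the other above, and the difference was -4.27 ± 0.12 (adjusted p = 2.02e-16, limma). NPPC, a natriuretic peptide, averaged 0.90 ± 0.334 TPM in Pom_72h and 10.6 ± 0.363 TPM in Non-treat, and 20.8 ± 1.55 TPM in Aiolos_KD and 7.88 ± 0.244 TPM in Control_KD. TUBA1A, an alpha tubulin, had effects of -1.65 and 1.65, each ± 0.13, and its controls averaged 14.4 TPM in Non-treat and 15.6 TPM in Control_KD. TNFRSF21, a death receptor (-1.43 and 1.47), and WNK2, a kinase (-1.27 and 1.57), also opposed, as did the calcium sensor HPCAL4 (difference -3.23 ± 0.12). Control_KD lay below Non-treat in WNK2 (-0.90), HPCAL4 (-0.78), DDAH1 (-0.58), TNFRSF21 (-0.48) and NPPC (-0.38). The controls did not differ past the threshold in TUBA1A (0.13), and the part of these gaps in the results was not tested.

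Some genes moved in 1 effect alone. MMP9, a gelatinase (chromosome 20, 46008908 to 46016561, plus strand), stood at 39.9, 43.5 and 33.3 TPM in Pom_72h, while its values in Non-treat were 0, 0 and 0.41 TPM. It stayed at 0.28, 0.29 and 0.28 TPM in Aiolos_KD, against 0.26, 0.18 and 0.24 TPM in Control_KD. The drug effect was 5.14 ± 0.12 and the knockdown effect 0.07 ± 0.12. MYH7B, a myosin (4.78 and 0.10), PCDH12, a protocadherin (4.49 and 0.17), and CLSTN2, a calsyntenin (4.43 and 0.10), also passed with the drug alone. FRMD3 (chromosome 9, 83242990 to 83538546, minus strand) was the opposite case. It stood at 4.84, 4.09 and 4.48 TPM in Pom_72h against 4.75, 4.15 and 4.48 TPM in Non-treat, and at 82.0, 76.6 and 89.9 TPM in Aiolos_KD against 4.19, 4.30 and 3.52 TPM in Control_KD. Its knockdown effect was 4.07 ± 0.11 and its drug effect 0.00 ± 0.11.

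Further genes higher in the labelled knockdown and unmoved at 72 h of drug were PON1, a lipid-associated esterase (3.25), TLE1, a corepressor (2.64), and C3AR1, a complement receptor (2.58). At 24 and 48 h of drug, outside this comparison, TLE1 stood above Non-treat by 0.68 and 0.95, and C3AR1 by 0.81 and 0.72. PON1 passed at neither time, and FRMD3 was lower at both (-0.46 and -0.44). At 72 h TLE1 also passed with the drug, downward, under median-of-ratios scaling (-0.29), under quantile normalization (-0.34) and without Pom_72h replicate 2 (-0.31). Genes lower in the labelled knockdown and unmoved at 72 h of drug were SLC6A9, a glycine transporter (-3.23), ARHGAP9 (-3.17), SLC7A11, the cystine transporter (-3.10), and INHBE, an inhibin subunit (-2.56). All 4 stood higher in Control_KD than in Non-treat, by 2.20, 2.80, 2.65 and 2.71 on the log2 scale. ARID2_KD also lay below Control_KD in all 4 (-1.56, -1.91, -1.63 and -1.68), and Aiolos_KD lay below ARID2_KD (-1.68, -1.26, -1.47 and -0.88). At 48 h of drug SLC7A11 (-0.91) and SLC6A9 (-0.45) were lower than in Non-treat, and ARHGAP9 and INHBE did not pass. SLC7A11, for example, stood at 2.38, 2.53 and 3.20 TPM in Aiolos_KD, at 28.2, 32.7 and 31.2 TPM in Control_KD, and at 3.58, 4.23 and 4.32 TPM in Non-treat. The part of the control's level in these calls was not tested. At 72 h SLC7A11 also passed with the drug, downward, under median-of-ratios scaling (-0.27) and quantile normalization (-0.34), and INHBE under the last (-0.41).

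Genes of cell division fell deeply with the drug and shallowly in the labelled knockdown. Of 61 mitosis genes 61 fell with the drug, where 31.6% of all genes did. In the labelled knockdown 55 fell, 2 rose and 4 did not pass. The difference was lower in 60 and higher in 1, CDC25B. Relative to all genes the list's median was -3.34 with the drug, -0.58 in the labelled knockdown and -2.77 for the difference. FOXM1, a transcription factor of mitotic genes (chromosome 12, 2857681 to 2877155, minus strand), changed with the drug alone. It stood at 11.7, 12.4 and 9.66 TPM in Pom_72h against 109.7, 109.5 and 111.8 TPM in Non-treat, and at 98.2, 104.7 and 95.6 TPM in Aiolos_KD against 97.6, 95.7 and 97.8 TPM in Control_KD. Its effects were -3.19 ± 0.06 and 0.03 ± 0.06, and the Pom_72h libraries alone stood apart.

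DLGAP5, a spindle protein, averaged 3.17 ± 0.517 TPM in Pom_72h and 62.4 ± 0.736 TPM in Non-treat, and 37.6 ± 3.44 TPM in Aiolos_KD and 55.8 ± 2.51 TPM in Control_KD. HJURP, the chaperone of the centromeric histone, averaged 6.54 ± 1.24 TPM in Pom_72h and 99.9 ± 3.15 TPM in Non-treat, and 68.3 ± 2.32 TPM in Aiolos_KD and 95.7 ± 0.668 TPM in Control_KD. The mitotic kinase PLK1 fell by 3.73 and 0.66. CCNB2 (-2.80 and 0.18) and ECT2 (-1.76 and 0.20) opposed, and CENPF did not pass in the labelled knockdown (-0.18, adjusted p = 0.065, limma), though it did with median-of-ratios scaling (-0.25), in a fit of 12 libraries only (-0.18) and without Aiolos_KD replicate 3 (-0.28). ARHGAP11A, a GTPase activator of dividing cells, had effects of -3.32 and -0.11, and its knockdown effect passed with median-of-ratios scaling (-0.17).

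TTTGAA, the cell cycle homology region bound by the complex that represses mitotic genes in resting cells, stood in 23 of 44 matched mitosis promoters (52.3%), against 8.10% of all 7220, and CCAAT in 77.3% against 36.8%. The stretches of DLGAP5 (chr14:55191679-55191735, minus strand) and HJURP (chr2:233854586-233854685, minus strand) are shown as examples from genes with large differences (GRCh38.p14, RefSeq), with TTTGAA on either strand in capitals.
DLGAP5: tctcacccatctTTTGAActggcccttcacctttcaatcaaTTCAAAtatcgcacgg
HJURP: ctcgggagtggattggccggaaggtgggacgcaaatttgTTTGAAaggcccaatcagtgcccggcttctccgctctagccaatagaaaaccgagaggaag
DLGAP5 holds the motif on both strands and HJURP on the given strand.

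DNA replication genes fell in both effects, with a larger part in the labelled knockdown than mitosis genes had. Of 52 S phase genes 52 fell with the drug, and 51 fell in the labelled knockdown with POLE, a polymerase, the exception (0.00). The relative medians were -2.80, -0.97 and -1.73, and the difference was lower in 50 of 52. MCM6, of the replicative helicase, stood at 32.3, 32.4 and 32.9 TPM in Pom_72h against 233.6, 243.0 and 239.5 TPM in Non-treat. It stood at 66.9, 69.7 and 70.6 TPM in Aiolos_KD against 230.4, 240.5 and 241.0 TPM in Control_KD, with the controls alike. RRM2, of ribonucleotide reductase, fell by 4.21 and 1.69, and TYMS, thymidylate synthase, by 3.99 and 1.00. Against the libraries of the other hairpin, labelled ARID2 knockdown, Aiolos_KD was lower in 39 of 52 S phase genes, where 30.2% of all genes were. Of the 61 mitosis genes it was higher in 57 (35.7% of all genes). ARID2_KD itself lay below Control_KD, with relative medians of -1.29 for mitosis genes and -0.57 for S phase genes.

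TTTGGCGC, a form of the E2F motif, stood in 7 of 33 matched S phase promoters (21.2%), against 0.983% of all. MCM6 is shown as the S phase example with 2 copies (chr2:135876514-135876613, minus strand, GRCh38.p14, RefSeq), in capitals.
MCM6: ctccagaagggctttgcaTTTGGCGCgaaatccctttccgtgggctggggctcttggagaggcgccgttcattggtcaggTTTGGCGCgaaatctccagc
Both copies lie on the given strand.

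Regulators upstream of division mostly moved the same way in both effects. Of 14 CDK, G1 cyclin and inhibitor genes 7 fell in both and 4 rose in both, where 18.9% and 27.4% of all genes did (CDKN1A, CDKN1B, CDKN1C and RBL2). CDKN1A, the inhibitor p21, averaged 55.3 ± 0.741 TPM in Pom_72h and 23.1 ± 2.1 TPM in Non-treat, and 91.4 ± 5.44 TPM in Aiolos_KD and 65.3 ± 1.92 TPM in Control_KD. In the MYC network MYB, a progenitor transcription factor, fell by 3.93 and 1.46, while MXD4 (1.76 and 1.28) and MXD1 (1.35 and 0.83), antagonists of MYC, and MYCL (1.64 and 1.95) rose in both. Of 35 ribosome biogenesis targets of MYC 24 fell in both (18.9% of all genes), with a relative median of -0.53 for the drug, -0.41 for the labelled knockdown and -0.07 for the difference. Replication histones had 6 of 14 shared higher (27.4% of all genes), with HIST1H2AC at 3.04 and 1.28. These genes have close copies and their values are uncertain.

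**Figure D3:**
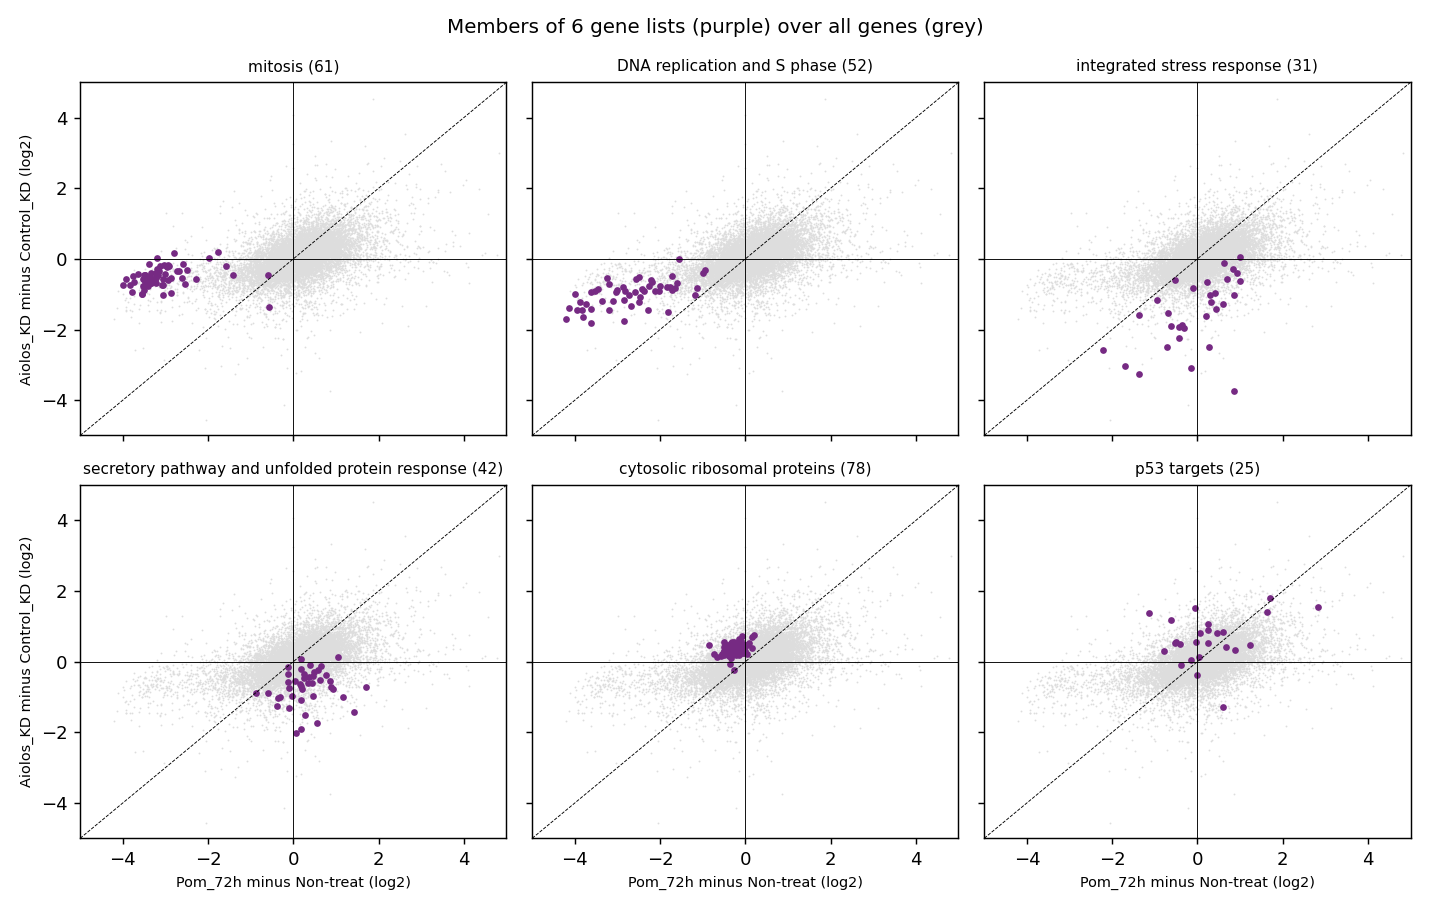
Knockdown effect (vertical, log2) against drug effect (horizontal, log2) for the members of 6 gene lists (purple) over all genes (grey), with a dashed line where the effects are equal. Mitosis genes lie far left near 0 on the vertical axis (medians relative to all genes -3.34 and -0.58), and most integrated stress genes lie below 0 on the vertical axis, on both sides of 0 on the horizontal one.

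The integrated stress response, in which ATF4 raises amino acid synthesis, transport and tRNA charging, set the effects apart. Of 31 genes of the list 29 were lower in the labelled knockdown, where 30.7% of all genes were, and 2 did not pass. With the drug 16 were higher, 13 lower and 2 did not pass. The difference was higher in 29 of 31 (35.0% of all genes), 14 genes opposed (6.79% of all genes in that direction) and 13 were shared lower (18.9%). Relative to all genes the list's median was 0.04 with the drug, -1.48 in the labelled knockdown and 1.31 for the difference. ATF4 stood at 558.6, 565.4 and 604.5 TPM in Pom_72h against 456.6, 470.3 and 468.3 TPM in Non-treat, and at 404.7, 431.8 and 414.2 TPM in Aiolos_KD against 933.2, 982.8 and 1008.7 TPM in Control_KD. CHAC1, which degrades glutathione (chromosome 15, 40952962 to 40956519, plus strand), stood at 10.4, 11.4 and 10.1 TPM in Pom_72h against 5.49, 5.26 and 5.33 TPM in Non-treat. It stood at 5.25, 5.44 and 5.36 TPM in Aiolos_KD against 78.1 to 89.8 TPM in Control_KD (mean 83.6 ± 5.88, SD, n = 3).

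Control_KD held the most RNA of these genes in sum. The summed TPM of the list ran from 2398 to 2541 in Pom_72h and from 2649 to 2689 in Non-treat, and from 1805 to 1849 in Aiolos_KD and from 5081 to 5560 in Control_KD. The libraries labelled ARID2 knockdown lay between 2460 and 2511. Control_KD exceeded Non-treat by a list median of 0.91 relative to all genes. CHAC1 did so by 3.73, PSAT1 by 1.99, SESN2 by 2.13 and ASNS by 1.78. The difference of differences equals Pom_72h minus Aiolos_KD plus Control_KD minus Non-treat, so the level of Control_KD enters it in full, and its part in the result was not tested. In the comparison with ARID2_KD, which leaves Control_KD out and passed in 65.9% of all genes, Aiolos_KD was lower in 25 of the 31 genes, higher in 2 and not past the threshold in 4 (30.2% of all genes lower), with a relative median of -0.56. ATF4 itself was higher there, by 0.11 ± 0.03 (adjusted p = 0.00965, limma).

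Some enzymes and transporters of the list fell in both effects. PSAT1, of serine synthesis, stood at 33.5, 31.2 and 37.5 TPM in Pom_72h against 90.1, 90.5 and 87.3 TPM in Non-treat, and at 36.0, 34.6 and 39.0 TPM in Aiolos_KD against 337.4, 363.7 and 375.2 TPM in Control_KD. The treated groups were at like levels and the controls were not. SLC7A5 (-1.69 and -3.04), SHMT2 (-1.36 and -1.59) and ASNS (-0.71 and -2.50), which import leucine, use serine and make asparagine, also fell in both. PSPH, the last enzyme of serine synthesis, opposed (0.28 and -2.50), with Control_KD above Non-treat by 2.13. Its drug effect did not pass with median-of-ratios scaling (0.12, adjusted p = 0.143, limma), so the opposition was lost there. DDIT4 (1.00 and -0.63), SESN2 (0.60 and -1.27) and DDIT3 (0.92 and -0.41), which restrain growth or act in stressed cells, opposed.

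**Figure D4:**
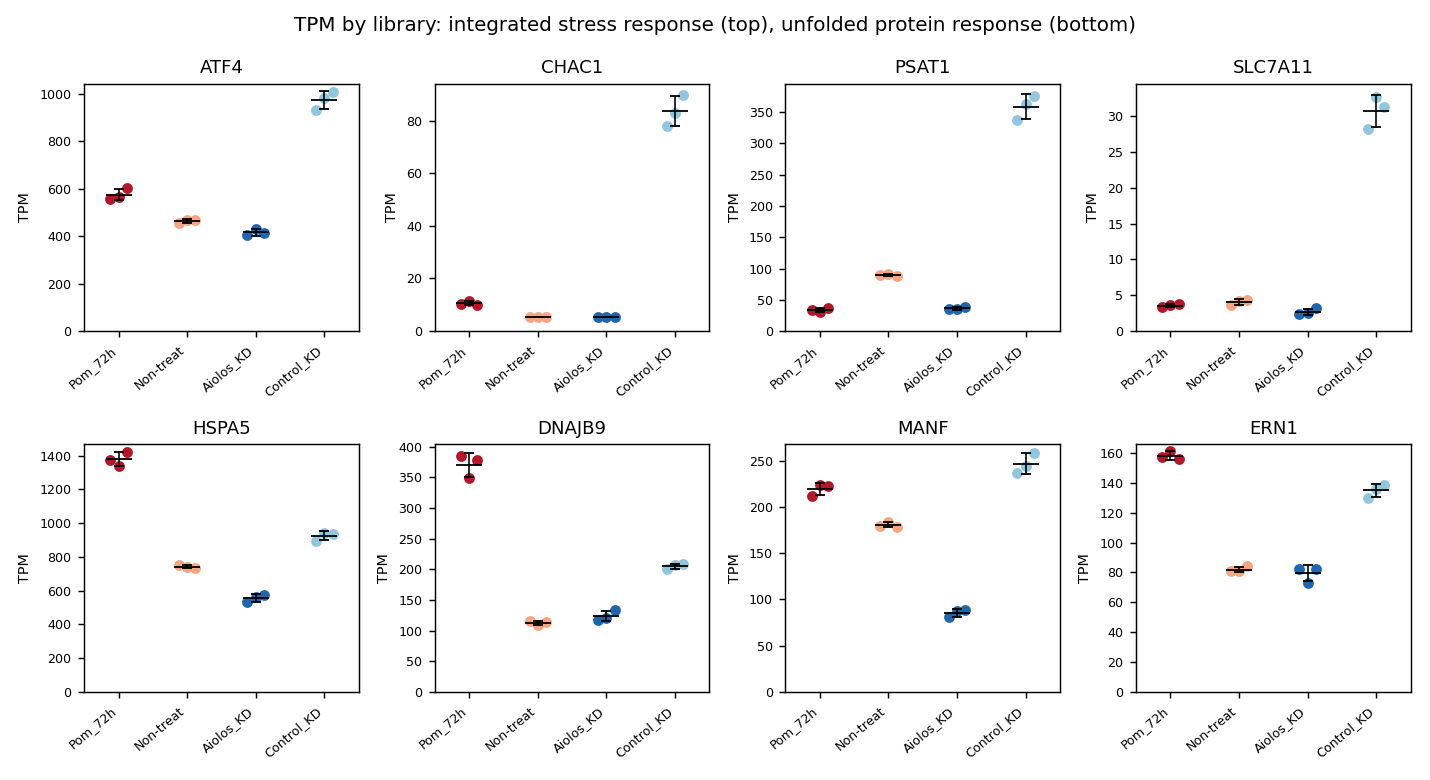
TPM of 4 integrated stress genes (top) and 4 unfolded protein response genes (bottom) in each of the 12 libraries, with group mean and SD (n = 3). Control_KD is the highest group for the 4 genes on top and for MANF, and Pom_72h for HSPA5, DNAJB9 and ERN1.

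The secretory pathway and the unfolded protein response, which sense and relieve protein load in the endoplasmic reticulum, opposed in most of their genes. Of 42 genes 28 rose with the drug and 9 fell, where 48.1% and 31.6% of all genes did. In the labelled knockdown 40 fell, where 30.7% of all genes did, and DERL3 rose. Opposition was called in 26 of 42, where 6.79% of all genes opposed in that direction, and the difference was higher in 39 (35.0% of all genes). The relative medians were 0.10, -0.72 and 0.81. HSPA5, the chaperone BiP, stood at 1376.4, 1338.8 and 1422.3 TPM in Pom_72h against 750.1, 739.5 and 733.9 TPM in Non-treat, and at 532.6, 564.7 and 572.9 TPM in Aiolos_KD against 896.3, 942.9 and 937.7 TPM in Control_KD. DNAJB9, its cochaperone, stood at 384.8, 348.5 and 378.4 TPM in Pom_72h against 116.3, 109.4 and 113.4 TPM in Non-treat, and at 117.1, 120.6 and 133.1 TPM in Aiolos_KD against 200.1, 206.3 and 208.3 TPM in Control_KD. For both genes the drug libraries were the highest of the 4 groups.

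Some members passed in the labelled knockdown alone. XBP1, the transcription factor of the secretory programme, had effects of -0.01 ± 0.02 and -0.74 ± 0.02, and SSR1, of the translocon, 0.07 ± 0.04 and -2.01 ± 0.04. SEC24D (0.55 and -1.74), CRELD2 (1.17 and -1.01), MANF (0.28 and -1.52) and the sensor kinase ERN1 (0.94 and -0.76) opposed. The median of the list in Control_KD minus Non-treat was 0.34 relative to all genes, and its part in the result was not tested. Against ARID2_KD the list had 26 genes lower, 9 higher and 7 not past the threshold, where 30.2% of all genes were lower and 35.7% higher. ARID2_KD itself lay below Control_KD in this list, with a relative median of -0.44.

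TGATGNAA, the C/EBP-ATF element to which ATF4 binds, stood in 2 of 12 matched integrated stress promoters (16.7%), against 1.18% of all, and CCACGTC, a part of the endoplasmic reticulum stress element, in 7.41% of opposed promoters with the drug effect higher against 3.73% of all. AARS, an aminoacyl-tRNA synthetase lower in both effects (-0.42 and -1.92), and HERPUD1, opposed, are shown because they hold the same 8 letters and fell in different classes (chr16:70289647-70289746, minus strand, and chr16:56931902-56932001, plus strand, GRCh38.p14, RefSeq). The capitals mark TGATGNAA, read here from the other strand.
AARS: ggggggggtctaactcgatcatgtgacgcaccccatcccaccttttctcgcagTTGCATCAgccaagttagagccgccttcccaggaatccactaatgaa
HERPUD1: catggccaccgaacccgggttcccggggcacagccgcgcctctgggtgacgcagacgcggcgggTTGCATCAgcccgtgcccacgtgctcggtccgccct
The letters TTGCATCA are the same in both, and the sequence around them differs.

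Cytosolic ribosomal protein genes opposed in the other direction, by small amounts. Of 78 genes 63 fell with the drug, 3 rose and 12 did not pass, while 75 rose in the labelled knockdown, where 37.2% of all genes did. Opposition was called in 60 of 78 (4.46% of all genes in that direction), and the difference was lower in 77. The relative medians were -0.39, 0.30 and -0.66. RPS12 stood at 3172.3, 3116.6 and 3305.1 TPM in Pom_72h against 4509.6, 4612.0 and 4467.1 TPM in Non-treat, and at 7383.6, 7589.9 and 7666.3 TPM in Aiolos_KD against 5201.5, 5112.5 and 5178.0 TPM in Control_KD. Together these genes held 7.63% ± 0.14 of listed TPM in Pom_72h and 9.03% ± 0.145 in Non-treat, and 13.0% ± 0.383 in Aiolos_KD and 9.75% ± 0.103 in Control_KD (SD, n = 3 each). Their many copies elsewhere in the genome leave single values uncertain. With mitochondrial and ribosomal protein mRNA left out together, the difference was higher in 3728 genes and lower in 4015 (48.1% higher, against 55.6%). The part of either share in that shift was not tested.

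Targets of p53, which halts division or triggers death after damage, rose more often in the labelled knockdown than with the drug. Of 25 genes 21 rose there, where 37.2% of all genes did, 2 fell and 2 did not pass. With the drug 12 rose, where 48.1% of all genes did, 8 fell and 5 did not pass. The difference was lower in 16 and higher in 6. The relative medians were -0.08, 0.50 and -0.36, and the drug median itself was 0.07 in the deposited scaling and -0.09 with median-of-ratios scaling. FAS, a death receptor (chromosome 10, 88990582 to 89015785, plus strand), stood at 6.72, 6.91 and 7.27 TPM in Pom_72h against 17.7, 15.3 and 16.8 TPM in Non-treat, and at 50.0, 45.9 and 49.8 TPM in Aiolos_KD against 17.4, 18.6 and 18.4 TPM in Control_KD. It opposed with controls alike (difference -2.52 ± 0.09), and averaged 68.7 TPM in ARID2_KD. The death receptor TNFRSF10B (-0.61 and 1.17), DDB2, FDXR, AEN and PLK3 also opposed, with Control_KD above Non-treat by 0.83 for TNFRSF10B. PLK2 (2.82 and 1.55), ZMAT3 (1.70 and 1.81) and BBC3 (1.63 and 1.40) rose in both. The rise of the list was larger in ARID2_KD, with a relative median of 1.07 in ARID2_KD minus Control_KD. Against ARID2_KD, Aiolos_KD was lower in 16 of the 25 genes and higher in 7, where 30.2% and 35.7% of all genes were.

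The BCL2 family, which sets the threshold for cell death, was led by BMF, a pro-death BH3-only member (chromosome 15, 40087890 to 40108892, minus strand). BMF stood at 536.8, 539.6 and 526.1 TPM in Pom_72h against 49.8, 47.8 and 52.8 TPM in Non-treat, and at 187.4, 186.1 and 183.6 TPM in Aiolos_KD against 49.2, 49.5 and 48.7 TPM in Control_KD. The controls were alike, and BMF rose by 3.39 ± 0.03 with the drug and by 1.90 ± 0.03 in the labelled knockdown, a difference of 1.49 ± 0.04 (adjusted p = 1.80e-16, limma). BCL2L1, the survival protein BCL-XL, stood at 342.9, 362.1 and 356.2 TPM in Pom_72h against 366.0, 367.2 and 375.5 TPM in Non-treat. It stood at 735.1, 724.5 and 691.1 TPM in Aiolos_KD against 370.0, 372.7 and 370.9 TPM in Control_KD. Its knockdown effect was 0.95 ± 0.03, and its drug effect of -0.06 ± 0.03 (adjusted p = 0.0572) passed with median-of-ratios scaling (-0.23), without mitochondrial and ribosomal protein mRNA (-0.10), without Pom_72h replicate 2 (-0.08) and without Aiolos_KD replicate 3 (-0.06). MCL1, another survival protein, rose by 0.75 and 0.36, BCL2 by 0.90 with the drug (knockdown effect 0.05), and HRK, a pro-death member, opposed (-1.21 and 1.02). Of 15 members 9 rose with the drug and 9 in the labelled knockdown, where 48.1% and 37.2% of all genes did, and 5 were shared higher (27.4% of all genes).

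Plasma cell genes fell more often in the labelled knockdown. Of 19 members 14 fell there, where 30.7% of all genes did, and 4 rose. With the drug 8 fell and 9 rose, where 31.6% and 48.1% of all genes did. The difference was higher in 14, and the relative medians were -0.16, -0.77 and 0.43. The summed TPM of the list was higher in both effects, unlike the gene counts in the labelled knockdown. It was 31732 to 33643 in Pom_72h and 21548 to 21764 in Non-treat, and 26031 to 27996 in Aiolos_KD and 23098 to 23315 in Control_KD. GPRC5D, a surface receptor targeted in myeloma (chromosome 12, 12940775 to 12952147, minus strand), stood at 163.5, 176.4 and 154.8 TPM in Pom_72h against 128.2, 120.2 and 124.3 TPM in Non-treat, and at 45.7, 46.0 and 45.9 TPM in Aiolos_KD against 177.3, 197.9 and 199.9 TPM in Control_KD. The surface receptor TNFRSF17 (BCMA) fell in both (-0.85 and -1.34), SLAMF7 fell in both (-0.92 and -0.71) and the integrin ITGB7 rose in both (1.23 and 0.96). PRDM1, the plasma cell repressor, had effects of -0.14 and -0.88. In the Ikaros family all 5 genes were higher in both effects, where 27.4% of all genes were, IKZF2 by 0.55 and 0.41, IKZF4 by 0.55 and 0.35, and IKZF5 by 0.50 and 0.28. With median-of-ratios scaling the knockdown effect of IKZF1 and the drug effect of IKZF3 did not pass. The family's median in Control_KD minus Non-treat was -0.20 relative to all genes, and its part in the result was not tested. B cell stage genes had 6 of 15 shared higher (27.4% of all genes), among them BACH2 (1.88 and 1.21) and TCF4 (0.92 and 0.97), 3 shared lower and 2 opposed.

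Interferon-stimulated genes were higher more often than lower in both effects. Of 44 genes 28 rose with the drug and 10 fell, where 48.1% and 31.6% of all genes did. In the labelled knockdown 23 rose and 9 fell, where 37.2% and 30.7% of all genes did. Of the list 19 were shared higher and 4 shared lower, as were 27.4% and 18.9% of all genes. The relative medians were 0.31, 0.22 and 0.22. IFI6 averaged 81.5 ± 4.56 TPM in Pom_72h and 23.6 ± 1.39 TPM in Non-treat, and 101.4 ± 7.91 TPM in Aiolos_KD and 35.5 ± 2.51 TPM in Control_KD. LGALS3BP, a secreted glycoprotein, stood at 45.8, 52.4 and 44.3 TPM in Pom_72h against 0.60, 0.17 and 0.18 TPM in Non-treat, and at 0.49, 0.37 and 1.42 TPM in Aiolos_KD against 0.0558, 0.76 and 0.36 TPM in Control_KD. Only the Pom_72h libraries were high, and Aiolos_KD overlapped Control_KD. LGALS3BP's knockdown effect of 0.32 ± 0.18 (adjusted p = 0.114, limma) passed without Aiolos_KD replicate 2 (0.48) or Control_KD replicate 2 (0.51). OAS3, an antiviral enzyme, opposed (1.11 and -1.26), with Control_KD above Non-treat by 1.29, and TRIM22 rose in the labelled knockdown (1.93). TRIM22's drug effect of 0.28 (adjusted p = 0.0789, limma) passed with a pseudocount of 0.1 TPM (0.89) and without Non-treat replicate 1 (0.35).

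The interferon response element stood in 15 of 26 matched promoters of the list (57.7%), against 2.69% of all. IFI6, shared higher, and OAS3, opposed, are shown with the element in capitals (chr1:27672263-27672362, minus strand, and chr12:112938304-112938351, plus strand, GRCh38.p14, RefSeq).
IFI6: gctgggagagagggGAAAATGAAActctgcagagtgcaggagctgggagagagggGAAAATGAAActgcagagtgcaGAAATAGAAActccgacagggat
OAS3: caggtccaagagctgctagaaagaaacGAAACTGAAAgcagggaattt
IFI6 holds 3 copies in this stretch and OAS3 holds 1.

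Most antigen presentation genes rose with the drug. Of 24 MHC genes 18 rose and 5 fell with the drug, where 48.1% and 31.6% of all genes did. In the labelled knockdown 8 rose and 10 fell, where 37.2% and 30.7% of all genes did, and the median of 0.04 there turned below 0 with median-of-ratios scaling and quantile normalization. The difference was higher in 17. CIITA, the master regulator of class II genes (chromosome 16, 10866222 to 10943021, plus strand), stood at 30.9, 33.6 and 27.4 TPM in Pom_72h against 17.8, 18.3 and 18.8 TPM in Non-treat, and at 6.77, 6.04 and 6.61 TPM in Aiolos_KD against 12.6, 12.8 and 12.2 TPM in Control_KD. It opposed, as did HLA-DRA (1.46 and -0.22) and CD74, the invariant chain (1.16 and -0.64). The class I gene HLA-B (0.91 and 0.36) rose in both. HLA genes have close copies, so their values are uncertain.

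Metabolic genes mostly fell in both effects. Of 36 sterol and fatty acid synthesis genes 28 fell with the drug and 27 in the labelled knockdown, 25 of them in both (18.9% of all genes), with relative medians of -1.06, -0.56 and -0.54. INSIG1, a brake on sterol synthesis, fell by 3.14 and 1.54. Where 18.9% of all genes were shared lower, glycolysis had 16 of 23 (LDHA -1.90 and -1.06), nuclear oxidative phosphorylation 50 of 73, mitochondrial mRNA 7 of 13, the proteasome 25 of 32 and chaperones 17 of 26. PSMB5, the proteasome subunit that bortezomib binds (chromosome 14, 23016543 to 23035230, minus strand), opposed: it averaged 87.5 ± 4 TPM in Pom_72h and 111.8 ± 2.61 TPM in Non-treat, and 166.3 ± 7.53 TPM in Aiolos_KD and 101.8 ± 0.539 TPM in Control_KD.

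Lists near the drug's target and of signalling were mixed. Of all genes 48.1% rose and 31.6% fell with the drug, 37.2% rose and 30.7% fell in the labelled knockdown, and 27.4% were shared higher and 18.9% shared lower. Of 16 CRBN ligase genes 6 rose and 7 fell with the drug, and 6 rose and 4 fell in the labelled knockdown; the sign of the drug median depended on the scaling, as did that of the knockdown median (both below 0 with median-of-ratios scaling). Of 17 CRBN neosubstrates 12 rose with the drug and 7 in the labelled knockdown, with ZNF692 the widest apart (1.32 and 0.09); the knockdown median changed sign with median-of-ratios scaling. Of 20 PBAF and BAF subunits 10 fell with the drug and 5 in the labelled knockdown, whose median (0.02) was below 0 with median-of-ratios scaling (-0.04). Lysosome genes had 18 of 33 shared higher (GRN 2.47 and 0.66), NF-kB genes 12 of 22 and immediate early genes 11 of 22, and cytoskeletal and adhesion genes 18 of 45 shared lower. The summed TPM of the NF-kB list fell in both effects, unlike its gene counts. It was 1552 to 1566 in Pom_72h and 1968 to 2006 in Non-treat, and 1814 to 1909 in Aiolos_KD and 5614 to 6344 in Control_KD. ARID2_KD held 8958 to 9599, and the part of the control's level was not tested. ACTB (-1.48 and -0.11) and ACTG1 (-1.99 and -0.11), which have close copies, fell mostly with the drug, and CORO1B, an actin regulator, rose by 3.92 and 0.37.

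**Figure D5:**
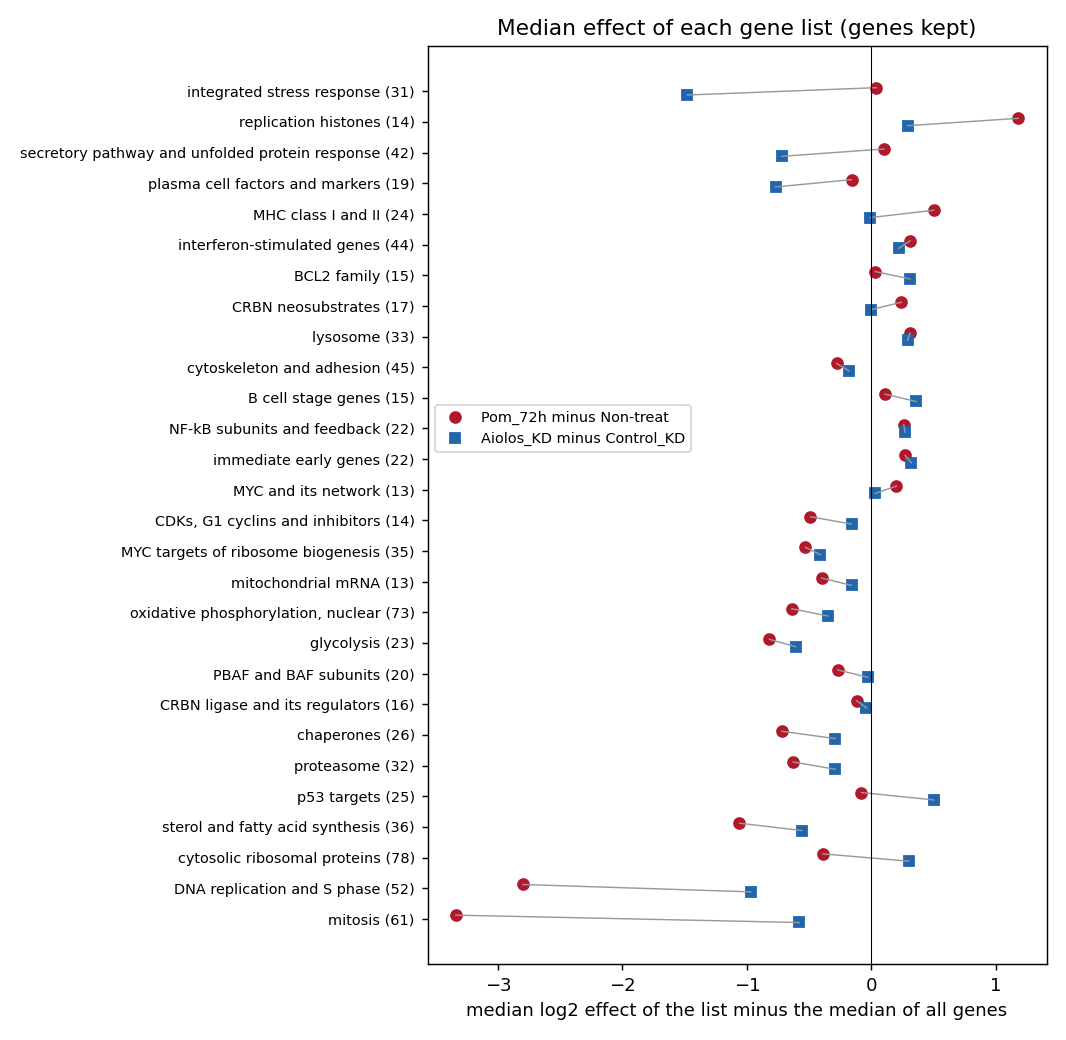
Median drug effect (circles) and median knockdown effect (squares) of 28 gene lists, each minus the median of all genes, in log2. The number of genes kept is in brackets. Lists are ordered by their median difference of differences relative to all genes, which can differ from the gap between the symbols. Mitosis and S phase are far to the left with the drug (-3.34 and -2.80), and the integrated stress list is to the left in the labelled knockdown alone (-1.48).

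Markers of other cell types moved with the groups at low levels. The 12 myeloid markers summed to 57.4 to 61.5 TPM in Pom_72h and 5.50 to 9.17 TPM in Non-treat, and to 22.2 to 26.7 TPM in Aiolos_KD and 7.03 to 10.5 TPM in Control_KD. CD68, a lysosomal protein and thus a member of another list, made up most of this at 49.8 ± 1.24 TPM in Pom_72h and 4.74 ± 0.989 TPM in Non-treat, and 21.6 ± 2.75 TPM in Aiolos_KD and 6.57 ± 1.05 TPM in Control_KD. The 15 T and NK cell markers in the table summed to 26.0 to 27.9 TPM in Pom_72h and 5.01 to 5.84 TPM in Non-treat, and to 6.83 to 7.96 TPM in Aiolos_KD and 4.40 to 6.64 TPM in Control_KD. In the 13 of 14 epithelial and stromal markers in the table the sums were 1.48 to 1.74 TPM and 7.40 to 7.87 TPM, and 3.91 to 6.84 TPM and 18.2 to 22.7 TPM, in the same order of groups. The 7 of 10 erythroid and megakaryocyte markers in the table summed to 10.8 to 14.4 TPM in Pom_72h and 11.8 to 17.3 TPM in Non-treat, and to 4.32 to 8.01 TPM in Aiolos_KD and 13.4 to 20.0 TPM in Control_KD. The cells all come from 1 line, so these sums are transcript levels within that line and not numbers of other cells. A change in some of its cells and a change in all of them cannot be told apart in these bulk samples. The part of these markers in the gene results was not tested.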

How the data were processed

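The authors deposited 1 table of TPM values, 17691 gene symbols by 21 libraries. Per the labels' protocols a TruSeq RNA kit was used, and the submitters' processing notes name hg38. No aligner, quantifier or annotation is stated there. Listed TPM summed to 953886 to 968652 per library compared.

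Values were analysed as log2(TPM + 1) for 12559 genes (1 TPM or more in 3 or more libraries). A single fit of all 21 libraries in limma 3.58.1 (R 4.3.3) had 7 group means and a trended empirical Bayes spread (14 residual and 5.28 prior degrees of freedom). Tests were two-sided, adjusted by Benjamini-Hochberg within each contrast over all genes, and passed below 0.05; limma gave every adjusted p. The code was tested on simulated data.

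Members, the 33 gene lists and the naming rule were chosen with earlier results of these data known. The rule named IKZF3, IKZF1, ARID2, CRBN, IRF4 and MYC; per class, genes whose libraries did not overlap in any called effect, with a mean of at least 5 TPM in the highest group, ranked by the smaller effect (split genes by the called effect, with the other under 0.2); and up to 3 members per list by called difference. Clone names, readthroughs and near-identical families (CCL3, SPRR2, KLRC, GOLGA8) were passed over, the last decided once ranks were seen. List members outside the rule are examples chosen after their values were seen. Of the genes, 12390 matched 1 GENCODE 29 gene (GRCh38), the source of gene coordinates, and 7220 had exactly 1 RefSeq promoter; motifs were searched on both strands of its 250 upstream bases, the interferon response element being given by name only, and printed stretches hold no annotated exon of that strand.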

Additional observations from a re-analysis of the deposited data

Results flagged for a closer look

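In 1413 genes both effects passed with opposite signs, and the difference of differences passed too (limma). That follows from both effects passing with opposite signs, so it adds no separate evidence. HERPUD1, RUNX2, FAS and DDAH1 are examples described above.

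IKZF3 differed between the comparisons by -0.46 on the log2 scale, with the transcript higher in the libraries labelled Aiolos knockdown than in Control_KD and by less in Pom_72h than in Non-treat. IRF4 differed by 1.17, with a fall of 2.20 in the labelled knockdown and of 1.03 with the drug.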

How the results depend on the processing

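Counts of calls and of classes stayed within 1.5 times under 21 alternatives: a pseudocount of 0.1 TPM, no filter, a filter of 5 TPM, median-of-ratios scaling, quantile normalization, mitochondrial and ribosomal protein mRNA left out, 12 libraries only, no trend, a replicate block and each of the 12 libraries left out. Without 1 library the difference of differences was higher in 4212 to 4477 genes and lower in 3342 to 3484. The correlation of the effects (0.487) moved to 0.447 with a pseudocount of 0.1 TPM, 0.481 without a filter, 0.501 with the filter of 5 TPM, 0.492 with median-of-ratios scaling, 0.476 with quantile normalization and 0.479 without mitochondrial and ribosomal protein mRNA, and ran from 0.48 to 0.489 without 1 library; the cause was not tested. Of 408 effects of named genes, 2 changed sign among those past the threshold with or without the alternative: UBE2G1 with the drug under median-of-ratios scaling (-0.05, adjusted p = 0.299) and MT-CO2 in the labelled knockdown under quantile normalization (0.13, adjusted p = 0.136). With median-of-ratios scaling 51.5% of the 462 genes higher, and 43.4% of the 435 lower, in the labelled knockdown alone kept their class, against 79.9% of the shared higher genes and all 2369 shared lower genes. Of the opposed genes, 69.2% of the 853 higher with the drug and 84.8% of the 560 lower with it kept their class. Of the genes that moved with the drug alone, 69.0% of the 1367 higher and 81.1% of the 821 lower did.

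Samples with the same replicate number deviated together no more than others (correlations -0.083 to 0.11, against -0.178 to 0.0999 for different numbers), and 4 of 12 libraries correlated best with their own number, so the numbers were not taken as pairs. With the replicate as a block the difference was higher in 4381 genes and lower in 3486; of the named effects TMEFF1's difference passed (adjusted p = 0.0496) and NPM1's knockdown effect did not (adjusted p = 0.0559).

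Depth is unknown, so genes near 0 TPM carry an unknown counting error. Each effect has 1 control group, and Control_KD differed from Non-treat in 5739 genes (45.7%), 2169 higher and 3570 lower.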
